A study of Danio rerio with 3 samples.

Results

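Claudins are membrane proteins that span the membrane several times and build the strands of the tight junction, the seal between neighbouring epithelial or endothelial cells. Some members mainly close the gap between cells and others form pores for ions or water, so that the set of claudins a cell makes is read as part of its epithelial identity. In the zebrafish, cldnj is needed for otoliths to form in the inner ear, cldn5a belongs to the neuroepithelium around the brain ventricles, cldnb is known from the placodes and the lateral line, and cldne is known from the surface layer of the embryo. Their levels are described here in single cells from the region of the developing ear. The claudin genes were taken as every gene row whose symbol starts with cldn, which gave 34 of 25109 rows. Of these, 33 had at least 1 unique molecular identifier (UMI, a tag that marks 1 captured transcript) in the cells kept, 30 had at least 20, and cldn18 had 0. The rows cldnd1a and cldnd1b are named for a claudin domain, and a search by symbol cannot tell whether they act as claudins.

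Dissected tissue was pooled and sequenced as 1 library per condition: shox2Δ/Δ mutant embryos, shox2Δ/+ heterozygous embryos and shox2+/+ wild-type embryos, all labelled about 22 hours post fertilization (hpf), although by the study's methods embryos were taken at more than 1 time. Each pool held the otic vesicle and the tissue around it from many embryos, so that no value below has a replicate, and no test between conditions was made. The mutants were GFP-negative offspring of an in-cross that carried a shox2 Gal4 allele and UAS:GFP, while the wild-type embryos came from neurog1:DsRed and neurod1:EGFP fish and were chosen for both colors. The cross behind the heterozygote library was not found in the sources used here. Genotype, transgenes and parental line cannot be told apart in any comparison below. The EGFP row had 3.65 CPM (UMIs of a gene, scaled to the same total in every library) in the mutant library, 261 CPM in the heterozygote library and 253 CPM in the wild-type library, and DsRed had 0.549, 2.21 and 135 CPM in the same order. The row of the deleted gene, shox2, had 0.999 CPM in the mutant, 4.52 CPM in the heterozygote and 2.2 CPM in the wild-type library. Reads of this kit lie near the 3′ end of a transcript, and the deletion lies near its start. By RT-qPCR on embryos, the study found the shox2 transcript nearly lost in mutants and lowered in heterozygotes. The order here differs, with 131 UMIs in the mutant library and the highest level in the heterozygote library. The reason was not tested, and the shox2 values were not used to check the genotype.

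Barcodes counted as cells if they held 500 genes or more but not as many as 6500, and if mitochondrial transcripts gave less than 5% of their UMIs: 6672 mutant, 8233 heterozygote and 8548 wild-type cells, with 17494, 16570 and 19450 UMIs in the median cell. The libraries shared cell barcodes. Among the cells kept, 551 barcodes occurred in the mutant and the wild-type library, 190 in the mutant and the heterozygote library and 66 in the heterozygote and the wild-type library. Of the 551, the copy in the mutant library was the shallower for 543, with a median of 1114 UMIs in the mutant and 40976 UMIs in the wild-type library. Of the 190, the median was 56992.5 UMIs in the mutant library and 1027 UMIs in the heterozygote library. Of 51 claudin ratios of 2-fold or more, 45 stayed so in the same direction with all shared barcodes left out. The values of the other 6 without them are given with those ratios. With only the shallower copy of each shared barcode left out, all 51 stayed so. These copies held 1.24% or less of the UMIs of any class in a library. Leaving them out could therefore hardly move a ratio of summed UMIs, and this says little about stability.

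Cells were grouped by clustering without the claudins and other tight junction genes, and clusters were named from marker lists. Of 39 clusters 31 were named, and the cells of the unnamed clusters are in none of the classes below. Otic-like cells numbered 234 in the mutant, 216 in the heterozygote and 315 in the wild-type library, epidermis-like cells 229, 233 and 128, endoderm-like cells 321, 312 and 351, neural progenitor-like cells 2125, 2879 and 3766, and endothelium-like cells 115, 105 and 141, always in that order of libraries. Without the shallower copies of shared barcodes, otic-like cells numbered 183, 186 and 302 and endothelium-like cells 99, 103 and 140. Of the markers, 17 of 20 otic, 21 of 23 epidermis, 12 of 15 endoderm, 21 of 25 neural progenitor and 20 of 20 endothelium genes exceeded by 2-fold or more, in their own class, their mean level in the remaining 4 classes. The clusters were named from these same lists, so the marker counts describe the naming and are no separate check of it. UMIs were summed per class and library, and a level is given in CPM of that sum. Intervals are 95% intervals that cover counting error only.

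The claudin with the highest level was a different one in each class. That of endoderm-like cells, cldnb, was higher still in otic-like and epidermis-like cells. In 13 of the 34 rows the level reached 50 CPM in at least 1 class and library, and these 13 fell into a few patterns. Among the 5 classes, cldna (ENSDARG00000069888) and cldnh were highest in otic-like cells, but cldnh was far higher in ionocyte-like and hatching gland-like cells, described below. The genes cldni (ENSDARG00000054616), cldne, cldn23a, cldnf and cldn1 were highest in epidermis-like cells. Of these classes, cldnc was highest in the endoderm-like, cldn5a (ENSDARG00000043716) in the neural and cldn5b (ENSDARG00000014059) in the endothelium-like one. The genes cldnb (ENSDARG00000009544) and cldn7b (ENSDARG00000014047) were shared by otic-like, epidermis-like and endoderm-like cells, and cldn12 was spread over all 5 classes. As clusters were made from the same cells, this is a description of the classes and carries no test.

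**Figure D1:**
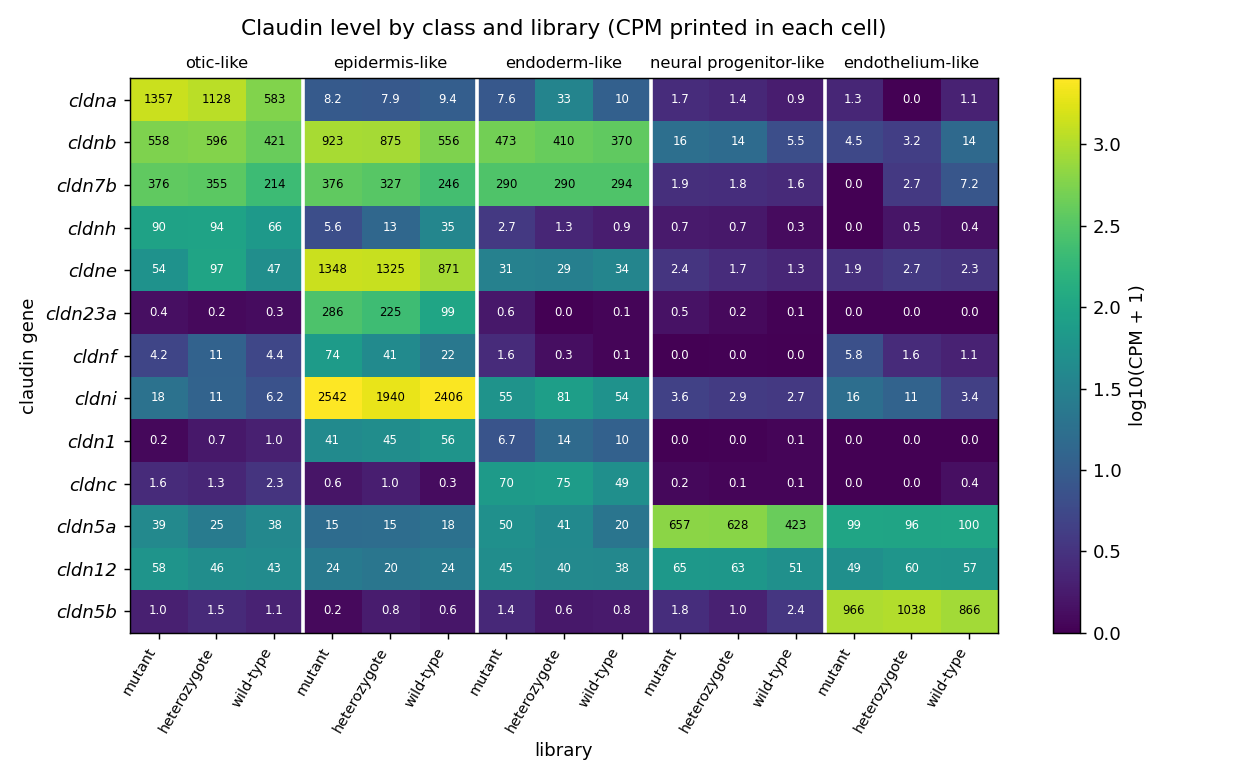
Level of the 13 claudins that reached 50 CPM, in rows, for each of 5 classes and 3 libraries, in columns (mutant, heterozygote and wild-type from left to right within a class). The number in each field is CPM, and the color is log10(CPM + 1). The brightest fields are cldni in epidermis-like cells, at 2542 CPM in the mutant, 1940 CPM in the heterozygote and 2406 CPM in the wild-type library.

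Summed over all 34 rows, claudins took 2599 CPM in mutant, 2405 CPM in heterozygote and 1464 CPM in wild-type otic-like cells. Epidermis-like cells had the highest sum, with 5674 CPM in the mutant, 4863 CPM in the heterozygote and 4371 CPM in the wild-type library. In endoderm-like cells it was 1074, 1053 and 916 CPM, in neural progenitor-like cells 771, 737 and 511 CPM, and in endothelium-like cells 1163, 1241 and 1088 CPM in the same order. A single claudin dominated in some classes only. In neural progenitor-like cells cldn5a held 85.3% of the claudin UMIs in the mutant, 85.2% in the heterozygote and 82.8% in the wild-type library, and in endothelium-like cells cldn5b held 83.0%, 83.7% and 79.6%. In otic-like cells cldna held 52.2%, 46.9% and 39.8% and cldnb 21.5%, 24.8% and 28.7%. In endoderm-like cells cldnb held 44.1%, 39.0% and 40.4% and cldn7b 27.0%, 27.5% and 32.1%.

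The otic-like cells form the class that holds the wall of the ear vesicle. Its first claudin, cldna, had 1357 CPM in the mutant, 1128 CPM in the heterozygote and 583 CPM in the wild-type library, and was at 33.5 CPM or less in the other 4 classes in every library. Outside the classes, the unnamed cluster 6, in which 10 of 20 otic markers were raised, had cldna at 114, 242 and 113 CPM. In otic-like cells cldna was higher in the mutant than in the wild-type library by 1.22 on the log2 scale (interval 1.16 to 1.28), and higher in the heterozygote than in the wild-type library by 0.95 (0.89 to 1.01), which is under 2-fold. Next came cldnb with 558 CPM in the mutant, 596 CPM in the heterozygote and 421 CPM in the wild-type library, and cldn7b, whose mammalian counterpart binds the adhesion molecule EpCAM, with 376, 355 and 214 CPM. Compared with wild-type, the mutant library was higher by 0.41 on the log2 scale for cldnb (0.33 to 0.48) and by 0.81 for cldn7b (0.71 to 0.91). All of these intervals lie above 0, so the gaps are larger than counting error, but with 1 library per condition the spread between embryos or preparations was not measured.

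Lower claudins of the otic-like cells were cldnh, with 90.2 CPM in the mutant, 94.1 CPM in the heterozygote and 66.2 CPM in the wild-type library, and cldne, with 54.1, 96.9 and 47.0 CPM. For cldne the heterozygote library stood apart, at a log2 ratio of 1.04 over wild-type (0.84 to 1.25), while the mutant library was at 0.20 over wild-type (-0.04 to 0.44). The gene cldn12, an unusual claudin that lacks the usual binding motif at its end in mammals, had 57.6, 45.6 and 43.1 CPM. The otolith gene cldnj was low and highest in this class, with 8.38 CPM in mutant, 6.74 CPM in heterozygote and 4.65 CPM in wild-type otic-like cells, against a pooled level of 0.0487 CPM or less in the other 4 classes. In RefSeq's GRCz12tu assembly cldnj, cldne, cldnf and cldna follow each other with no other coding gene between them, and cldnh, cldnc and cldnb form another such run. Neighbours in these runs differed in their class: cldna and cldnj were highest in otic-like cells while cldne and cldnf were highest in epidermis-like cells, and cldnc was highest in endoderm-like cells.

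**Figure D2:**
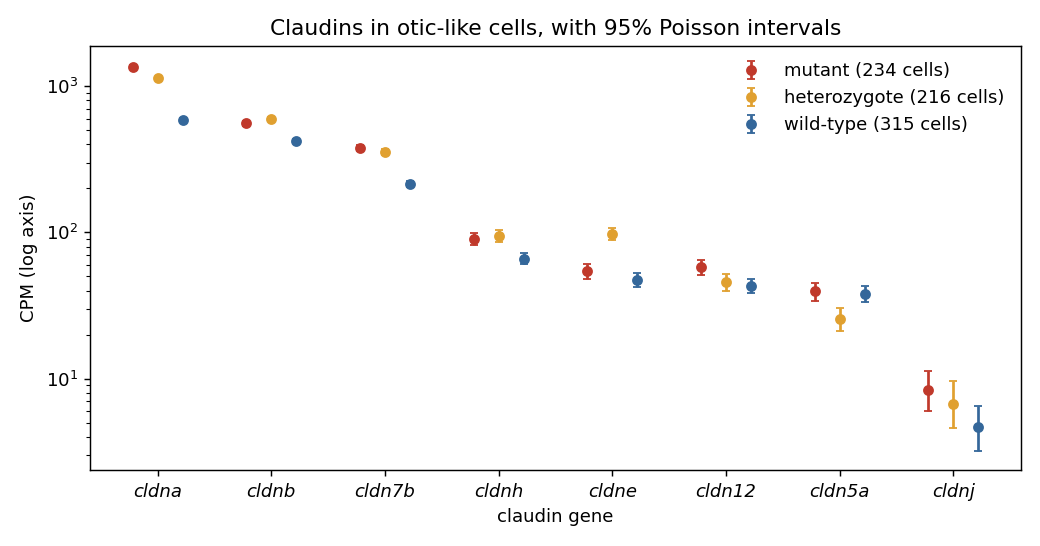
CPM of 8 claudins in otic-like cells on a log axis, with a point for each library (mutant, heterozygote and wild-type from left to right) and bars for 95% Poisson intervals, which are smaller than the point for the highest genes. For cldna the mutant (1357 CPM) and heterozygote (1128 CPM) points lie above the wild-type point (583 CPM).

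Otic-like cells of the 3 libraries did not hold the same mix of markers. The 15 markers of cranial sensory neurons summed to 424 CPM in mutant, 392.1 CPM in heterozygote and 1156 CPM in wild-type otic-like cells, with 3, 5 and 4 of them at 0, and the 17 neuron markers to 368, 282 and 530 CPM. The 20 otic markers summed to 8057, 7582 and 5636 CPM. Cells were therefore thinned to 3000 UMIs each, which left out 69 mutant, 68 heterozygote and 44 wild-type otic-like cells, and split by whether they held a UMI of neurod1, a gene of neuronal precursors. Without a neurod1 UMI, cldna had 1523 CPM in 144 mutant cells, 1322 CPM in 121 heterozygote cells and 742 CPM in 177 wild-type cells. With a neurod1 UMI it had 222 CPM in 21 mutant cells (121 to 373), 160 CPM in 27 heterozygote cells (85.5 to 274) and 152 CPM in 94 wild-type cells (110 to 205). So cldna was low in neurod1 cells of every library, and in cells without a neurod1 UMI the wild-type interval (671 to 819) lay below those of the mutant (1409 to 1644) and the heterozygote (1207 to 1446). For cldnb the picture differed. Without a neurod1 UMI, cldnb had 523 CPM in mutant (457 to 596), 686 CPM in heterozygote (603 to 777) and 540 CPM in wild-type cells (480 to 607), and the mutant and wild-type intervals overlap. For cldnh, the cells without a neurod1 UMI had 113 CPM in the mutant (83.9 to 150.0), 118 CPM in the heterozygote (85.7 to 160) and 121 CPM in the wild-type library (92.8 to 154). These intervals are too wide to show whether the gap seen over the whole class is absent there. The class levels above come from cells that were not thinned, so that the effects of thinning and of the split cannot be told apart. For cldn7b they had 363 CPM in the mutant (309 to 425), 441 CPM in the heterozygote (375 to 515) and 288 CPM in the wild-type library (244 to 338), and for cldne 50.9 CPM (31.9 to 77.1), 93.7 CPM (64.9 to 131) and 56.5 CPM (38.1 to 80.7). Only the heterozygote interval of cldn7b lay clear of the wild-type interval. The split did not make the cells alike: the otic marker oc90, which encodes an otolith protein, had 2400 CPM in mutant (2257 to 2551), 2474 CPM in heterozygote (2315 to 2641) and 1819 CPM in wild-type cells (1706 to 1938) without a neurod1 UMI. Another otic marker, stm, had 2755 CPM in mutant, 3085 CPM in heterozygote and 3196 CPM in wild-type cells of the same kind, highest in wild-type. With a neurod1 UMI, oc90 had 1857, 1210 and 670 CPM.

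Per cell, cldna was found in 82.4% of thinned mutant (75.7% to 87.9%), 75% of heterozygote (67.2% to 81.7%) and 59.0% of wild-type otic-like cells (52.9% to 65.0%, exact binomial intervals). Among neural progenitor-like cells thinned in the same way, which should lack it, the share was 0.332%, 0.384% and 0.188%, with 17494, 16570 and 19450 UMIs in the median cell of the libraries before thinning. Otic-like cells used several claudins at a time. At 3000 UMIs they held 2.71 claudin genes on average in the mutant, 2.84 in the heterozygote and 2.2 in the wild-type library, and without thinning 4.66, 4.75 and 4.56. In the mutant library 72.1% of the cells with cldna also had cldnb, against 24.1% of those without, and the same shares were 76.6% and 27.0% in the heterozygote and 71.3% and 29.7% in the wild-type library. Both genes were in 59.4%, 57.4% and 42.1% of cells, where independent occurrence would give 52.5%, 48.1% and 32.0%. The class joins cells with and without a neurod1 UMI, and those with one were low in both genes (cldnb at 127, 111 and 135 CPM). That mix enters these shares, and joint occurrence within the neurod1 split was not examined.

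Epidermis-like cells fell into a pair of clusters with different claudins. Of the 23 epidermis markers, 18 were raised in cluster 19, and 7 were among its leading genes. The name of cluster 35 rests on less, with 10 of 23 raised and none among its leading genes. Cluster 19, led by keratin genes such as krt17 and krt5, had cldne at 2626 CPM in the mutant, 2209 CPM in the heterozygote and 2115 CPM in the wild-type library, and cldnb at 1741, 1398 and 1285 CPM. Its cldni was at 52.5, 11.8 and 8.55 CPM. Cluster 35 was the mirror of this, with cldni at 5127 CPM in the mutant, 4814 CPM in the heterozygote and 4078 CPM in the wild-type library, cldnb at 74.5, 96.0 and 48.2 CPM and cldne at 20.4, 5.68 and 3.97 CPM. The claudin of the mammalian epidermal barrier, cldn1, was at 83.3, 113 and 95.3 CPM in cluster 35. The gene cldn7b was in both clusters, with 461, 372 and 365 CPM in cluster 19 and 288, 261 and 162 CPM in cluster 35.

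The same split was seen in single cells. Among thinned epidermis-like cells, cldni was in 57.9% of mutant, 54.3% of heterozygote and 63.0% of wild-type cells, and cldne in 43.5%, 44.7% and 32.8%. Only 9 of 209 mutant, 4 of 208 heterozygote and 1 of 119 wild-type cells held both, that is 4.31%, 1.92% and 0.840%, where independent occurrence at these shares would give 25.2%, 24.3% and 20.7%. The class joins 2 clusters whose levels of both genes differ, so a share far below independence restates those levels. Joint occurrence within a cluster was not examined. Of the cells without cldni, 93.2% in the mutant, 93.7% in the heterozygote and 86.4% in the wild-type library had cldne.

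**Figure D3:**
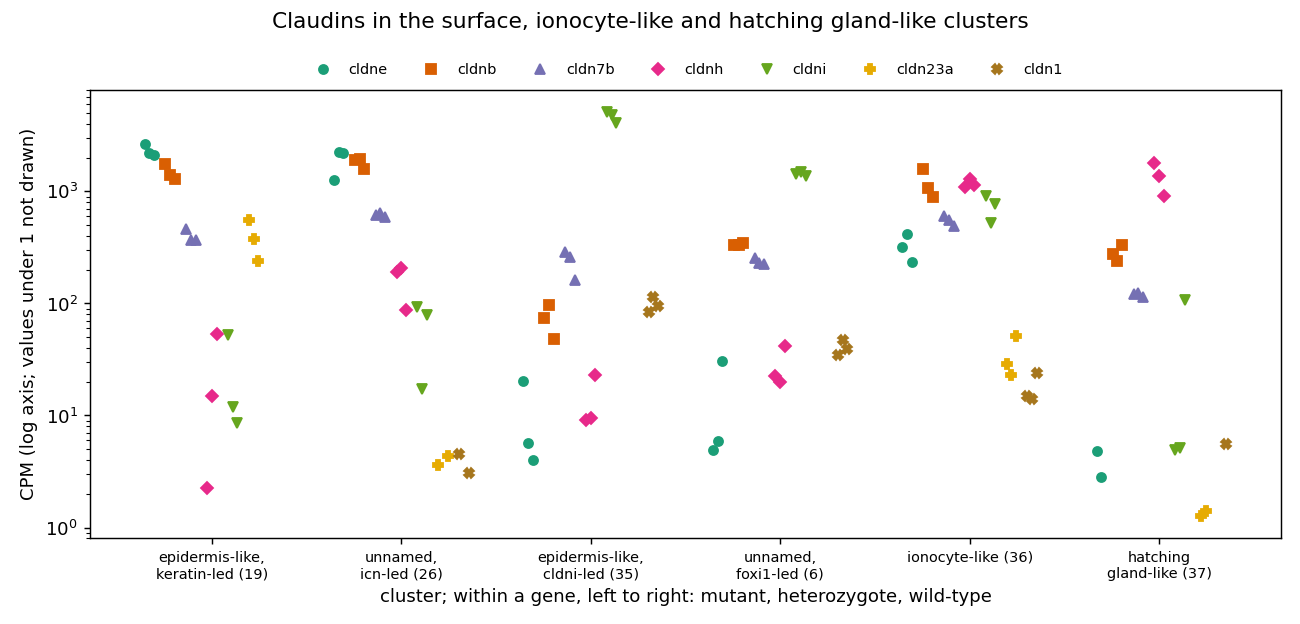
CPM of 7 claudins on a log axis in 6 clusters, with 3 points per gene (mutant, heterozygote and wild-type from left to right) and values under 1 CPM not drawn. In the keratin-led cluster 19 cldne lies between 2115 and 2626 CPM and in the cldni-led cluster 35 cldni lies between 4078 and 5127 CPM, while ionocyte-like and hatching gland-like cells are high in cldnh.

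Between libraries, the largest gaps among the abundant epidermal claudins were in cldn23a and cldnf. In epidermis-like cells cldn23a had 286 CPM in the mutant, 225 CPM in the heterozygote and 99.2 CPM in the wild-type library, a log2 ratio of 1.53 for mutant over wild-type (1.36 to 1.70) and 1.18 for heterozygote over wild-type (1.01 to 1.35). For cldnf the levels were 73.7, 41.3 and 21.9 CPM, with log2 ratios of 1.75 (1.40 to 2.11) and 0.91 (0.55 to 1.29). Both genes belong to cluster 19, which held 111 of 229 mutant, 123 of 233 heterozygote and 53 of 128 wild-type epidermis-like cells. Within cluster 19 alone cldn23a had 561 CPM in the mutant, 376 CPM in the heterozygote and 241 CPM in the wild-type library, with log2 ratios of 1.22 (1.06 to 1.39) and 0.64 (0.47 to 0.81), so the heterozygote library was then under 2-fold. In the same cluster cldnf had 143, 68.8 and 53.4 CPM, with log2 ratios of 1.42 (1.07 to 1.78) and 0.36 (0.00019 to 0.74). The gene cldni itself was at 2542 CPM in the mutant, 1940 CPM in the heterozygote and 2406 CPM in the wild-type class, and cldne at 1348, 1325 and 871 CPM. Within cluster 19 the log2 ratio of cldne over wild-type was 0.31 in the mutant and 0.06 in the heterozygote, against 0.63 and 0.60 in the whole class, where the share of cluster 19 differs.

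The gene cldnh in this class rested on few cells and barcodes. It had 5.58 CPM in mutant, 12.7 CPM in heterozygote and 35.4 CPM in wild-type epidermis-like cells, a log2 ratio of -2.67 for mutant over wild-type (-3.18 to -2.18). The 121 UMIs of the wild-type library lay in 6 of 128 cells, and 1 cell with a barcode shared between libraries held 34.7% of them. With shared barcodes left out, the log2 ratio was 1.26 for mutant over wild-type, so its direction turned, and for heterozygote over wild-type it was 2.53 in place of -1.48.

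Endoderm-like cells, the lining of the pharynx by their markers, shared cldnb and cldn7b with the other epithelia and added cldnc. The gene cldnb had 473 CPM in the mutant, 410 CPM in the heterozygote and 370 CPM in the wild-type library, and cldn7b had 290, 290 and 294 CPM, so that mutant and wild-type differed by -0.02 on the log2 scale (-0.11 to 0.07). For cldnc, listed by RefSeq as cldn3d, the levels were 70.0, 75.2 and 48.7 CPM, and its pooled level was 63.3 CPM in endoderm-like cells against 1.79 CPM in the class with the next highest level. It was found in 11.7% of thinned mutant, 10.8% of heterozygote and 8.18% of wild-type endoderm-like cells. The neural claudin cldn5a had 50.5 CPM in mutant, 40.8 CPM in heterozygote and 19.9 CPM in wild-type endoderm-like cells, 2-fold or more higher in both, beside summed neural progenitor markers of 1409, 1253 and 986 CPM. Their part in it was not tested. With shared barcodes left out the log2 ratio of cldn5a in the mutant was 0.97 in place of 1.34, and that of the heterozygote was 0.91 in place of 1.03. With cells chosen by a marker gate in place of clusters, the ratio of the mutant over wild-type was -0.11. The otic claudin cldna was at 7.64 CPM in mutant, 33.5 CPM in heterozygote and 10.2 CPM in wild-type endoderm-like cells, so that the heterozygote library alone stood out, by 1.71 over wild-type (1.34 to 2.10). Otic markers summed to 635, 699 and 597 CPM in these cells.

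Neural progenitor-like cells made cldn5a and little else. It had 657 CPM in the mutant, 628 CPM in the heterozygote and 423 CPM in the wild-type library, a log2 ratio of 0.63 for mutant over wild-type (0.61 to 0.66) and of 0.57 for heterozygote over wild-type (0.55 to 0.59), both under 2-fold. It was found in 81.2% of thinned mutant (79.4% to 82.8%), 79.2% of heterozygote (77.6% to 80.7%) and 67.1% of wild-type cells (65.6% to 68.6%), against 2.87%, 4.81% and 0.840% of epidermis-like cells. The libraries were unevenly spread over the 11 clusters of this class. Clusters 8 and 9 held 1077 and 671 wild-type cells but 5 and 3 mutant and 12 and 9 heterozygote cells, while cluster 0 held 538 mutant, 816 heterozygote and 19 wild-type cells. In the 8 clusters with at least 30 cells of the mutant and the wild-type library, cldn5a was higher in the mutant in all 8, by 0.19 to 1.02 on the log2 scale, and higher in the heterozygote in all 8, by 0.04 to 0.92. These clusters come from the same libraries and are no replicates of each other. Gaps in cldn5a also occurred outside neural cells, at lower levels. The log2 ratio over wild-type was 0.93 in mutant and 0.95 in heterozygote head mesenchyme-like cells, and 0.83 and 0.68 in lateral plate-like cluster 18. It was 0.78 and -0.45 in neural crest-like, -0.29 and 0.80 in arch mesenchyme-like and -0.88 and -0.08 in pigment-like cells. Whether the gap is particular to neural cells was not tested.

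By region, cldn5a was highest in the smallest neural cluster, number 32, led by sost, rspo3, bmp5 and gdf6a, with 2085 CPM in the mutant, 1891 CPM in the heterozygote and 1833 CPM in the wild-type library. Cluster 12, led by the proneural gene atoh1a and by olig4, followed with 1237, 1047 and 809 CPM. Floor plate-like cells, at the ventral midline of the neural tube, had 948 CPM in the mutant, 911 CPM in the heterozygote and 618 CPM in the wild-type library. In the neuron-like clusters it was low, with 229, 152 and 107 CPM in cluster 13 and 59.4, 44.4 and 38.7 CPM in cluster 23. So cldn5a fell off between progenitor clusters and neuron clusters in each library. The order of clusters 32, 12 and floor plate was the same in the 3 libraries.

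**Figure D4:**
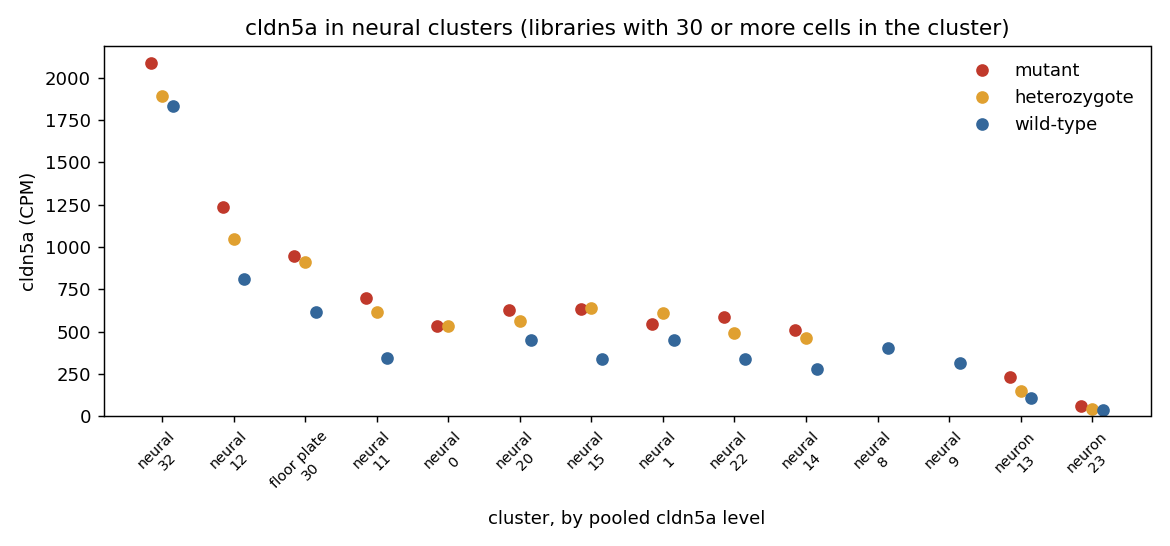
CPM of cldn5a in neural progenitor-like, floor plate-like and neuron-like clusters, ordered by their pooled level, with a point for each library (mutant, heterozygote, wild-type) that has at least 30 cells in the cluster. Points run between 1833 and 2085 CPM in cluster 32 and between 38.7 and 59.4 CPM in neuron cluster 23, and the mutant point lies above the wild-type point wherever both are drawn.

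Of the other claudins in neural progenitor-like cells, cldn12 had 64.6 CPM in the mutant, 63.1 CPM in the heterozygote and 50.5 CPM in the wild-type library. The gene cldnb was low, with 16.4, 14.5 and 5.53 CPM, and its log2 ratio was 1.56 for mutant over wild-type (1.39 to 1.74) and 1.39 for heterozygote over wild-type (1.21 to 1.57). Cluster 0, with 19 wild-type cells, held 302 of the 684 mutant and 343 of the 712 heterozygote cldnb UMIs of this class. The uneven spread of the libraries over clusters thus enters the class ratio. In the 7 clusters with enough cells and UMIs cldnb was higher in the mutant in all 7, by 0.33 to 4.15 on the log2 scale. The highest of these, in cluster 11, rests on 40 mutant UMIs and 1 wild-type UMI (1.59 to 9.49), and in clusters 12 (-0.47 to 1.62) and 22 (-1.12 to 1.74) the interval includes 0. It was found in 5.07% of thinned mutant, 4.86% of heterozygote and 1.82% of wild-type neural progenitor-like cells, against 0%, 1.12% and 1.54% of endothelium-like cells. The 0 of 81 endothelium-like mutant cells allow, at 3 cells of the total, up to 3.70% of cells with a cldnb UMI at this depth (exact binomial upper limit 4.45%), which does not limit the cells that express the gene.

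Endothelium-like cells, the lining of blood vessels, were led by cldn5b, a relative of the claudin that seals the mammalian blood-brain barrier. It had 966 CPM in the mutant, 1038 CPM in the heterozygote and 866 CPM in the wild-type library, and was at 2.43 CPM or less in the other 4 classes. The log2 ratio was 0.16 for mutant over wild-type (0.06 to 0.25) and 0.26 for heterozygote over wild-type (0.17 to 0.35). Its paralog cldn5a was present at 98.6, 96.1 and 100.2 CPM, so that mutant and wild-type differed by -0.02 on the log2 scale (-0.32 to 0.27). Mutant cells of this class were shallower, with 8458 UMIs in the median mutant cell, 17629 in the heterozygote and 17890 in the wild-type cell. Without the shallower copies of shared barcodes the medians were 12032 UMIs in 99 mutant, 17736 in 103 heterozygote and 17886 in 140 wild-type cells. After thinning, cldn5b was in 59.3% of mutant (47.8% to 70.1%), 64.0% of heterozygote (53.2% to 73.9%) and 71.5% of wild-type cells (63.0% to 79.1%), intervals that overlap.

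Ionocyte-like and hatching gland-like cells, few as they were, were both high in cldnh. The 33 mutant, 33 heterozygote and 18 wild-type ionocyte-like cells had cldnb at 1585, 1063 and 893 CPM and cldnh, listed by RefSeq as cldn3c, at 1106, 1284 and 1137 CPM. In these cells cldni and cldne were both present, cldni at 920, 522 and 769 CPM and cldne at 319, 413 and 232 CPM. Hatching gland-like cells, which number 23, 65 and 16, had cldnh at 1803 CPM in the mutant, 1363 CPM in the heterozygote and 917 CPM in the wild-type library.

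Counted over the 34 rows, 17 claudins had at least 20 UMIs over the mutant and the wild-type library in otic-like cells, and 3 of them were 2-fold or more higher and 1 lower in the mutant, where 8.04% of all genes tested were higher and 5.94% lower. The median log2 ratio of these 17 was 0.34, against 0.06 over all genes. In epidermis-like cells 4 of 16 were higher and 2 lower (all genes 7.63% and 6.16%), in endoderm-like cells 3 of 16 higher and 1 lower (7.31% and 5.42%), in neural progenitor-like cells 4 of 20 higher and 1 lower (11.2% and 7.6%), and in endothelium-like cells 1 of 6 higher and 1 lower (6.18% and 5.73%). Taken as pairs of a claudin and a class, 15 of 75 pairs were higher and 6 lower in the mutant than in the wild-type library, against 8.34% and 6.28% of all gene and class pairs. For heterozygote over wild-type it was 12 of 74 higher and 10 lower, against 6.9% and 6.58%. By class, heterozygote over wild-type gave 3 of 17 higher and 1 lower in otic-like cells (all genes 5.82% and 6.87%), 3 of 17 higher and 2 lower in epidermis-like cells (6.45% and 8.41%), 3 of 15 higher and 2 lower in endoderm-like cells (6.31% and 4.53%), 2 of 18 higher and 2 lower in neural progenitor-like cells (9.99% and 7.04%) and 1 of 7 higher and 3 lower in endothelium-like cells (4.33% and 5.85%). Both comparisons use the same wild-type library. Between the mutant and the heterozygote library, 4 of 69 pairs were higher and 4 lower in the mutant, against 2.2% and 1.54%. By class these were 0 higher and 1 lower of 14 in otic-like cells (all genes 2.79% and 1.46%), 1 and 1 of 17 in epidermis-like cells (2.97% and 1.34%), 2 and 2 of 15 in endoderm-like cells (1.52% and 1.89%), 1 and 0 of 18 in neural progenitor-like cells (1.38% in both directions) and 0 and 0 of 5 in endothelium-like cells (2.68% and 1.73%). The same claudin enters several classes, so that pairs are not independent of each other.

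**Figure D5:**
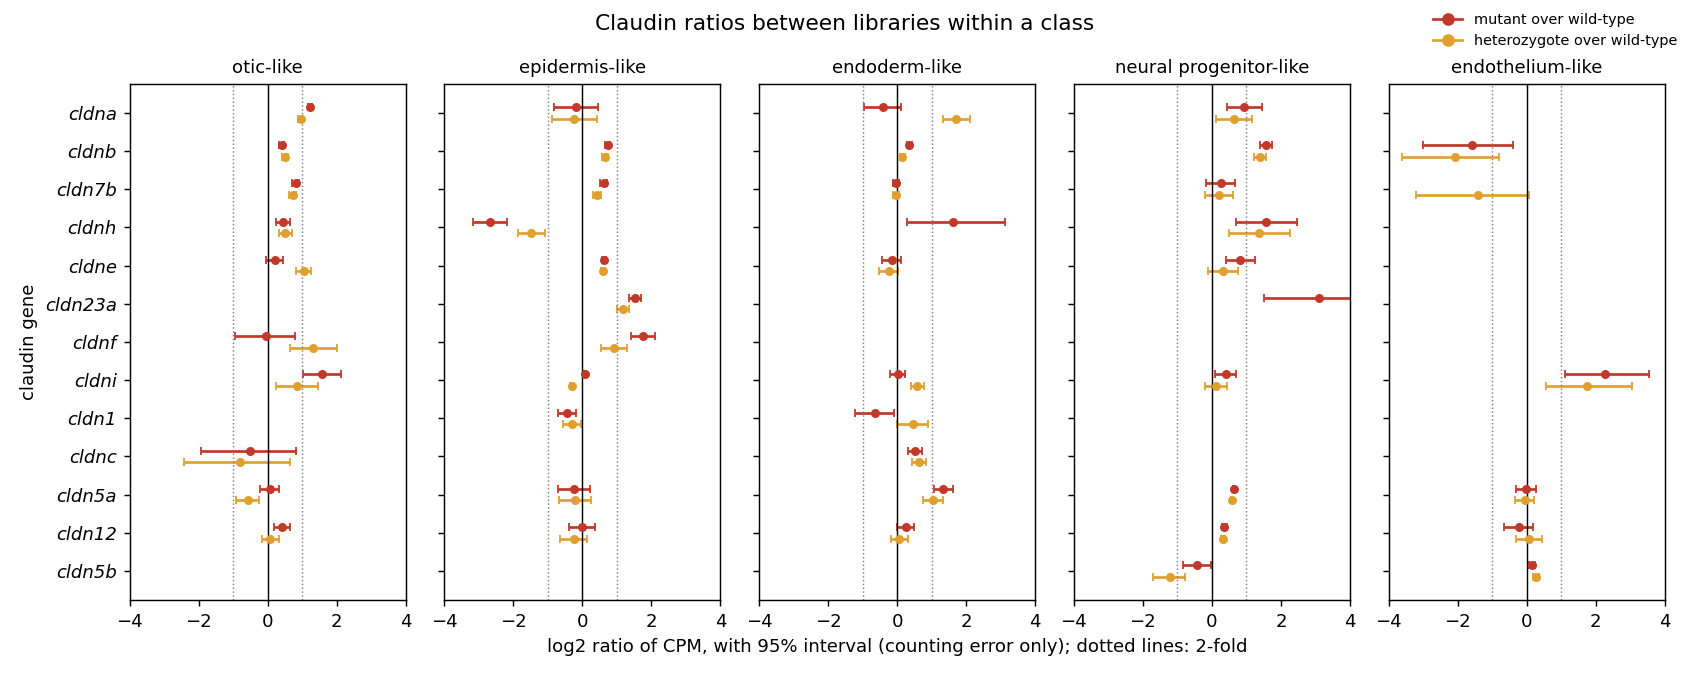
Log2 ratio of CPM for 13 claudins in each of 5 classes, mutant over wild-type (red) and heterozygote over wild-type (orange), drawn where the 2 libraries together had at least 20 UMIs and neither was at 0. Bars are 95% intervals for counting error, 1 of which runs past the axis, and dotted lines mark 2-fold. In otic-like cells cldna lies at 1.22 and 0.95, and in epidermis-like cells cldn23a lies at 1.53 and 1.18.

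Several 2-fold gaps were in claudins of very low level. Over all cells kept, the gene cldn15lb had 6 UMIs in the mutant library, 9 in the heterozygote library and 559 in the wild-type library. In neural progenitor-like cells it had 0 UMIs in the mutant, 1 in the heterozygote and 216 in the wild-type library (2.86 CPM), and it was as thinly spread in the other wild-type classes, with 21 UMIs in otic-like, 17 in epidermis-like and 25 in endoderm-like cells. The gene cldn23b ran the other way, with 8.18 CPM in mutant, 8.26 CPM in heterozygote and 1.97 CPM in wild-type otic-like cells, and 11.2, 4.8 and 0.878 CPM in epidermis-like cells, where the wild-type value is 3 UMIs and thinning the cells turned the log2 ratio of the mutant to -0.076. In endoderm-like cells cldn23b had 7.32, 7.12 and 2.39 CPM, so the wild-type library was the lowest in each of these 3 classes. In otic-like cells cldni had 18.4 CPM in the mutant, 11.1 CPM in the heterozygote and 6.2 CPM in the wild-type library, but 1 cell held 51.1% of its 92 UMIs in the mutant and 1 cell 62.7% of its 51 UMIs in the heterozygote library. In endothelium-like cells cldni had 16.2, 11.3 and 3.39 CPM, from 25, 21 and 9 UMIs. Also in endothelium-like cells, cldn7b and cldn11b were lower in the heterozygote than in the wild-type library, by -1.41 (-3.19 to 0.06) and -1.14 (-1.95 to -0.40).

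Further gaps of 2-fold or more in epidermis-like cells were in cldn11b, with 5.35 CPM in the mutant, 4.32 CPM in the heterozygote and 11.4 CPM in the wild-type library (without shared barcodes, -0.97 in place of -1.09 for mutant over wild-type), and in cldnd1b, with 26 UMIs in the mutant, 27 in the heterozygote and 0 in the wild-type library. In otic-like cells cldnf had 4.19, 10.9 and 4.37 CPM, highest in the heterozygote library. In endoderm-like cells cldnd had 3.98, 0.971 and 2.27 CPM, and cldn1 had 6.69 CPM in the mutant and 14.2 CPM in the heterozygote library. There cldnh had 2.71, 1.29 and 0.882 CPM, from 17, 8 and 7 UMIs, and its log2 ratio for mutant over heterozygote was 0.87 without shared barcodes, in place of 1.06. In neural progenitor-like cells cldn5b had 1.82, 1.04 and 2.43 CPM, cldnh 0.741, 0.651 and 0.252 CPM, cldn23a 0.454, 0.203 and 0.0531 CPM and cldn15a 0.335 CPM in the mutant and 0.146 CPM in the wild-type library. The neural values of cldnh, cldn23a and cldn15a rest on 4 to 32 UMIs in a library.

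The other genes of the junction followed the classes as well. Of a list of 51 tight junction and apical polarity genes, 47 were found. The adhesion molecule epcam led in otic-like cells (363 CPM in the mutant, 444 CPM in the heterozygote, 363 CPM in the wild-type library), in epidermis-like cells (1020, 968 and 840 CPM) and in endoderm-like cells (457, 562 and 515 CPM). Second were the junctional adhesion molecule f11r.1 in otic-like cells, with 260, 234 and 182 CPM, and the epithelial cadherin cdh1 in epidermis-like cells, with 446, 398 and 396 CPM, and in endoderm-like cells, with 212, 217 and 210 CPM. Neural progenitor-like cells had none of these above 2 CPM and were led by jam3b, with 126, 117 and 116 CPM, and by the scaffold gene tjp1b, with 111, 112 and 75.2 CPM. Endothelium-like cells were led by cgnl1, a cingulin relative, with 412, 457 and 504 CPM, and by tjp1a, with 532, 517 and 365 CPM.

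Over the 5 classes, 12 of 160 pairs of such a gene and a class were 2-fold or more higher and 5 lower in the mutant than in the wild-type library, 10 of 159 higher and 3 lower in the heterozygote than in the wild-type library, and 2 of 156 higher and 1 lower in the mutant than in the heterozygote library. The all-gene percentages above are the background of these counts too. In otic-like cells 5 of 37 were higher and 0 lower in the mutant, where 8.04% and 5.94% of all genes were. These were oclna and oclnb, which encode occludins, marveld3, another protein of that family, jam2a and the polarity gene crb3b. For oclna the levels were 38.1 CPM in the mutant, 36.9 CPM in the heterozygote and 15.2 CPM in the wild-type library, a log2 ratio of 1.32 for mutant over wild-type (0.98 to 1.68). For jam2a they were 25.5, 20.6 and 8.59 CPM, with a log2 ratio of 1.57 (1.12 to 2.04). In the heterozygote otic-like cells 5 of 37 were higher and 1 lower than in wild-type, where 5.82% and 6.87% of all genes were. Among these 5 were marveld2b and crb3a, which are not among the 5 of the mutant. The lower gene was jam3b, at 13.2, 9.78 and 22.1 CPM. These otic-like ratios cover the whole class, whose mix of markers differed between libraries as described above. No neurod1 split was made for these genes.

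The cingulin relative cgnl1 had, in neural progenitor-like cells, 41.8 CPM in the mutant, 33.6 CPM in the heterozygote and 15 CPM in the wild-type library, log2 ratios of 1.48 (1.37 to 1.59) and 1.16 (1.05 to 1.27). There crb1 and tjp3 were 2-fold higher in the mutant, and crb1 and jam2a in the heterozygote library. The uneven spread of the libraries over the neural clusters, described above, enters these neural ratios. No values within a cluster are given for these genes. In epidermis-like cells crb3b had 17.8, 22.6 and 8.19 CPM, jam2b 7.63, 5.76 and 3.51 CPM, and jam3b 4.55, 3.60 and 9.36 CPM. Of jam2a, the mutant epidermis-like cells had 36 UMIs, the heterozygote 14 and the wild-type 0. Also 2-fold or more apart, at under 11 CPM in every library, were ildr2 and magi3b in epidermis-like, pard6a in endoderm-like, and f11r.1, arhgef18a and epcam in endothelium-like cells.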

How the data were processed

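Gene-by-cell tables of raw UMI counts were deposited, 1 for each library, which the authors had produced by Cell Ranger (4.0.0 in the matrix headers) on GRCz11 with reporter rows. Nothing in them was normalized. The limits on cells (500 genes or more, not as many as 6500, less than 5% mitochondrial) left 131099920 UMIs in the mutant, 157573577 in the heterozygote and 176280326 in the wild-type library, and precision follows from the UMIs behind each value.

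All 23453 cells were clustered together with scanpy 1.11.5 (scikit-learn 1.9.0, leidenalg 0.10.2) on 2530 variable genes, 40 principal components and 10 neighbors at Leiden resolution 1, which gave 39 clusters. Claudins, the other tight junction genes, shox2 and the reporters did not enter the variable genes, which removed the 28 of them that would have been variable. A cluster was named from 22 marker lists, with at least 3 markers raised 2-fold. Scrublet called 0% of the cells of each library as doublets and was taken not to have worked, so no cell was removed.

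UMIs were summed per class and library. Levels have exact Poisson intervals, ratios exact conditional binomial intervals and shares of cells exact binomial intervals, at 95%. A ratio needed 20 UMIs over 2 libraries, and a count of 0 was set to 3 UMIs. Shares were taken after thinning each cell to 3000 UMIs. Named are all claudins at 50 CPM in a class and library, all that were 2-fold apart, and of the tight junction list the 2 highest per class and those 2-fold apart. The gene cldnj and the ionocyte-like, hatching gland-like and floor plate-like values were added after the values were seen. The members and lists were chosen with earlier results of these data known. The ratio code was tested on simulated data. Alternatives covered the clustering, cell filters, doublet scores, thinning, scaling, limits and, chosen after seeing the data, shared barcodes and the neurod1 split. RefSeq's GRCz12tu gene table was used for names and gene order only, as the files' build is GRCz11, and no sequence was printed.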

Additional observations from a re-analysis of the deposited data

Results flagged for a closer look

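For 2 claudins a gap of 2-fold or more between libraries ran in opposite directions in different classes. With smaller gaps counted, others did so too. For cldn5a, heterozygote over wild-type was -0.58 (-0.91 to -0.26) in otic-like cells, while in neural progenitor-like cells the heterozygote library was higher. For cldna, mutant over heterozygote was 0.27 (0.21 to 0.32) in otic-like and -2.13 (-2.62 to -1.67) in endoderm-like cells. Whether the classes differ was not tested, since each condition has 1 library. The log2 ratio of cldnh for mutant over wild-type was 1.62 in endoderm-like and 1.56 in neural progenitor-like cells but -2.67 in epidermis-like cells. For heterozygote over wild-type it was 1.37 in neural progenitor-like and -1.48 in epidermis-like cells, and for mutant over heterozygote 1.06 in endoderm-like and -1.19 in epidermis-like cells. Outside epidermis-like cells these values rest on 7 to 32 UMIs of cldnh in a library. In epidermis-like cells the 121 wild-type UMIs lay in 6 of 128 cells. With shared barcodes left out, cldnh in epidermis-like cells was at 1.26 for mutant over wild-type and 2.53 for heterozygote over wild-type. The directions over wild-type were then no longer opposite. For mutant over heterozygote it was then at -1.27 in epidermis-like and 0.87 in endoderm-like cells.

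The log2 ratio of cldnb for mutant over wild-type was 1.56 in neural progenitor-like and -1.58 in endothelium-like cells, and for heterozygote over wild-type it was 1.39 and -2.07. In endothelium-like cells cldnb had 7 UMIs in the mutant, 6 in the heterozygote and 36 in the wild-type library, and 1 wild-type cell held 30.6% of those 36. That was a cell whose barcode was shared between libraries, and without shared barcodes the log2 ratio of cldnb in endothelium-like cells was -1.31 for mutant over wild-type and -1.82 for heterozygote over wild-type.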

How the results depend on the processing

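No paired analysis was possible because each condition has 1 library. For the same reason no replicate was left out.

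Of the 51 claudin, class and comparison values at 2-fold or more, all 51 kept 2-fold in the same direction with median-of-ratios scaling and without the shallower copy of each shared barcode. With a Leiden resolution of 0.5 or 2 it was 45 and 46, with tight junction genes among the variable genes 49, with genes centred in each library 46, without the 8% highest doublet scores 44, without all shared barcodes 45, and with a mean over cells of per-cell CPM 37. A marker gate gave 36 of 49, thinning to 3000 UMIs 26 of 34, and stricter limits on genes and mitochondrial UMIs (under 3%) 41 of 50. The shallower copies held 1.24% or less of the UMIs of any class in a library, so leaving only them out could hardly move a ratio. Leaving out all shared barcodes also removed their deeper copies. In the wild-type library shared barcodes held from 4.94% (neural progenitor-like) to 34.9% (epidermis-like) of the UMIs of a class. In the mutant library it was from 1.47% (endothelium-like) to 21.7% (epidermis-like), and in the heterozygote library 3.72% (otic-like) or less.

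The direction turned for cldnh in epidermis-like cells, with log2 ratios of 1.19 (marker gate) and 1.26 (shared barcodes left out) for mutant over wild-type, 1.47 and 2.53 for heterozygote over wild-type, and 0.71 (mean over cells) for mutant over heterozygote. It turned for cldnh in endoderm-like cells, mutant over heterozygote, at -2.12 with the stricter cell filter, for cldnf in otic-like cells, mutant over heterozygote, at 0.17 with the mean over cells, and for cldn23b in epidermis-like cells, mutant over wild-type, at -0.076 after thinning. With the marker gate, mutant over wild-type was -0.11 for cldn5a in endoderm-like cells and 2.95 for cldnb in endothelium-like cells. The causes were not tested.

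Claudin pairs higher in the mutant than in the wild-type library, 15 in the report, numbered 5 after thinning, 8 with the stricter cell filter, 23 with at least 1 UMI and 25 at 1.5-fold, and pairs lower, 6 in the report, numbered 2 after thinning, 3 with at least 50 UMIs and 15 with at least 1 UMI. For heterozygote over wild-type the 12 higher became 5 after thinning, 20 with at least 1 UMI and 24 at 1.5-fold, and the 10 lower became 1 after thinning, 5 with at least 50 UMIs and 18 with at least 1 UMI. For mutant over heterozygote the 4 higher became 7 at Leiden 0.5, 12 with the marker gate, 10 with the mean over cells, 1 after thinning, 1 with at least 50 UMIs, 11 with at least 1 UMI and 9 at 1.5-fold, and the 4 lower became 2 with the mean over cells, 2 after thinning, 8 with the stricter filter, 10 with at least 1 UMI and 7 at 1.5-fold. Thinning and other UMI limits change how many pairs can be called at all. No share over all genes is given at these settings. The counts therefore show how far they depend on the settings, and not whether claudins stand above all genes there.

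Of the other tight junction genes, pairs 2-fold apart numbered 8 in place of 17 (mutant over wild-type) and 8 in place of 13 (heterozygote over wild-type) after thinning. For mutant over heterozygote the 3 pairs became 1 at Leiden 0.5 or 2, 6 with the marker gate, 0 with genes centred, 10 with the mean over cells, 5 after thinning and 5 with the stricter filter. Here too the number of pairs that can be called changes, and no share over all genes is given at these settings.

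Claudins at 50 CPM or more over the pooled libraries numbered 5 in otic-like, 4 in endoderm-like, 2 in neural progenitor-like and 3 in endothelium-like cells, and 3, 2, 1 and 1 at 100 CPM. In endoderm-like cells it was 7 at 20 CPM and 2 with the marker gate. Claudin genes per cell, averaged over the 3 libraries, were 1.78 in otic-like, 1.98 in epidermis-like, 1.07 in endoderm-like, 0.696 in neural progenitor-like and 0.763 in endothelium-like cells at 1500 UMIs, and 4.66, 5.29, 3.91, 2.32 and 2.29 without thinning, so that depth limits this number.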

Other observations

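Several clusters that could not be named also held much claudin RNA. Cluster 2, led by nkx2.9 and nkx2.2a, had cldn5a at 625 CPM in the mutant, 610 CPM in the heterozygote and 459 CPM in the wild-type library. In cluster 5, led by cyp26b1, it was at 719, 724 and 445 CPM. In cluster 7, led by hbbe3 and en2b, it was at 426, 390 and 345 CPM. The neural progenitor-like class does not include these cells. Cluster 6, led by foxi1, tfap2c and krt15, with 361 mutant, 365 heterozygote and 242 wild-type cells, had cldni at 1419 CPM in the mutant, 1505 CPM in the heterozygote and 1383 CPM in the wild-type library, and cldna at 114, 242 and 113 CPM. Of the marker lists the otic one fitted this cluster best, with 10 of 20 markers raised, but none was among its leading genes. The log2 ratio of cldna over wild-type was 0.002 in its mutant cells (-0.14 to 0.15) and 1.09 in its heterozygote cells (0.97 to 1.22). Cluster 26, led by icn, grhl3 and elf3, with 71 mutant, 55 heterozygote and 60 wild-type cells, had cldnb at 1926, 1938 and 1597 CPM and cldne at 1267, 2257 and 2225 CPM. These values have no replicate.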
